A study of Mus musculus with 60 samples.

Results

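The Eph receptors described here are 8 genes of one family, Epha1, Epha2, Epha4, Epha5, Epha7, Ephb2, Ephb3 and Ephb4. They were found by mapping the Ensembl transcript of each row of the deposited count table to its gene symbol in GENCODE M21, which gave 9 of 27665 rows. Ephb3 holds 2 of these rows, one nested inside the other, so the longer row stands for the gene and the shorter one is given only as a check. Nascent RNA was measured by EU-seq, in which RNA made during brief labelling takes up 5-ethynyl uridine (5-EU) and is captured and sequenced, in 60 libraries of mouse embryonic stem cells (mESCs) and neural progenitor cells (NPCs).

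Eph receptors are receptor tyrosine kinases that sense ephrins on the surface of neighbouring cells, and they are known for sorting cells at tissue boundaries and for steering growing axons. EphA receptors mainly bind ephrin-A ligands, which are anchored to the membrane by a lipid, and EphB receptors mainly bind ephrin-B ligands, which span it, while EPHA4 is known to bind both classes. EPHA2 is a well known receptor of epithelial and pluripotent cells, and EPHA4, EPHA5, EPHA7 and EPHB2 are known for axon guidance in the nervous system. EPHB4 is known as the venous receptor for ephrin-B2. RAD21 is a subunit of cohesin, the ring that extrudes chromatin loops, and CTCF is the DNA-binding protein that halts it.

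In RAD21AID mESCs and in the NPCs derived from them through epiblast stem cells, RAD21 carries an auxin-inducible degron and is lost upon addition of indole-3-acetic acid (IAA, 500 µM). An initial mESC experiment holds 2 control libraries and 2 treated with IAA for 4 h, and an additional mESC experiment holds 12 libraries of either kind. For NPCs there are 2 control libraries, pairs of libraries treated with IAA for 1, 2 or 4 h, and 2 libraries treated for 1 h with A-485 (10 µM), which blocks the catalytic activity of the coactivators CBP and p300. For CTCFAID mESCs, whose CTCF carries the same kind of degron, there are 4 control libraries and 4 treated with IAA (500 µM) for 6 h, and 2 of each were made with strand information. CTCFYF-AA mESCs carry a CTCF with a changed cohesin-binding motif and a dTAG degron, and gave 2 control libraries and 2 each after 2 and 4 h of dTAG13. A further mESC line carries CTCF-delta-N with a bTAG, degraded by AGB1, and CTCF-delta-C with a dTAG, degraded by dTAG13, and gave 2 control libraries and 2 each after 2 h of AGB1, of dTAG13 or of both. Both of these mutant lines are picked colonies that were described to grow more slowly. The degron alleles are carried by the control libraries of each line too, all libraries are of bulk cultures, and p values measure the spread between these libraries. The study calls its CTCF depletion libraries biological replicates, and for the others no separate cultures are named. For the CTCFAID, CTCFYF-AA and initial mESC libraries, the general treatment text of the labels names triptolide, a transcription inhibitor, while their titles do not, so groups follow the titles. The labels and the methods also differ on the dose of dTAG13, which is not given here. In such bulk samples, fewer cells of a type and less RNA per cell cannot be told apart.

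Libraries held 4027449 to 21898781 counts. All 8 naive pluripotency markers were above 5 TPM (counts scaled to gene body length and library total) in the 12 additional mESC controls, and all 8 NPC markers, among them Nes and Fabp7, were above 5 TPM in the NPC controls, where the summed level of the naive markers was 85.5 to 92.1 TPM against 5638 to 6101 TPM in mESCs. The NPC controls also held all 3 fibroblast markers at a summed level of 1613 to 1837 TPM (Col1a1 760 TPM, Col3a1 865 TPM and Pdgfra 101 TPM), against 2.20 to 2.81 TPM in the mESC controls, and none of the 3 was at 0. Degrons act on protein, so transcripts of the targeted genes do not check the depletion.

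The 8 genes fall into a long and a short set on mm10. Epha4 (chr1:77367185-77515088, minus strand), Epha7 (chr4:28813131-28967499, plus strand), Ephb2 (chr4:136647539-136835988, minus strand) and Epha5 (chr5:84054761-84416921, minus strand) span 147.9, 154.4, 188.4 and 362.2 kb. Epha1 (chr6:42358487-42373268, minus strand), Ephb3 (chr16:21204755-21223304, plus strand), Ephb4 (chr5:137350109-137374528, plus strand) and Epha2 (chr4:141301240-141329384, plus strand) span 14.8, 18.6, 24.4 and 28.1 kb. All are protein coding and were counted over exons and introns. Epha1 shares 11.68% of its length with Zyx on the opposite strand and 17.58% with an antisense transcript, and whether counting over genes used strand is not stated, so reads of Epha1 and of its partners cannot be told apart.

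The 250 bases upstream of the RefSeq starts of Epha4 and Epha2 (GRCm38.p6) are shown because these were the members that fell in both mESC experiments of RAD21 loss described below. Both are written in the direction of the gene, the first being chr1:77515089-77515338 on the minus strand and the second chr4:141300971-141301220 on the plus strand. Capitals mark matches to the GC box (GGGCGG) and the CCAAT box (CCAAT) on either strand, which share no bases with each other here.
Epha4: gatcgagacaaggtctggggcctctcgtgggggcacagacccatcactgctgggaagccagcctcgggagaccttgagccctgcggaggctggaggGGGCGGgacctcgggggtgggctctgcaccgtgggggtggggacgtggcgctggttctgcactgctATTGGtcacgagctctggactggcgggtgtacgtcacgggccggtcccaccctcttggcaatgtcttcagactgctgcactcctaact
Epha2: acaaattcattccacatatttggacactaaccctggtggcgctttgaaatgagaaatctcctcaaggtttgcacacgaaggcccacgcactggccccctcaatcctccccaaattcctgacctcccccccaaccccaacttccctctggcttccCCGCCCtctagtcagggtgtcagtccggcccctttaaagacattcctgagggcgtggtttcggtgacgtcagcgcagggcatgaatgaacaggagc
The Epha4 window held 1 GC box and 1 CCAAT box, and the Epha2 window 1 GC box and no CCAAT box. Over the family a GC box was found upstream of 7 of 8 genes and a CCAAT box upstream of 4 of 8, against 32.7% and 33.85% of 32851 mouse promoters of the same length. These matches describe the letters only.

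Levels are given as TPM, which can be compared between genes. In the 12 additional mESC controls the order of levels was Epha2 (lowest 116, median 124, highest 126 TPM), Epha4 (77.7, 84.7 and 98.4 TPM), Ephb3 (49.0, 51.0 and 55.0 TPM) and Ephb4 (29.6, 32.8 and 36.1 TPM). The other members were much lower, with Epha1 at 2.46 to 4.21 TPM, Ephb2 at 2.54 to 3.33 TPM, Epha7 at 1.32 to 1.84 TPM and Epha5 at 0.171 to 0.263 TPM. Of neighbours in this order Epha1 and Ephb2 overlapped and no others did. In the 2 NPC controls the order was Ephb4 (49.8 and 49.8 TPM), Ephb3 (41.9 and 42.7 TPM), Epha1 (41.7 and 42.5 TPM), Epha4 (24.6 and 24.8 TPM), Epha7 (20.1 and 20.6 TPM), Epha2 (17.2 and 17.7 TPM), Ephb2 (9.70 and 9.86 TPM) and Epha5 (6.92 and 6.96 TPM). Only Ephb3 and Epha1 overlapped there.

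**Figure D1:**
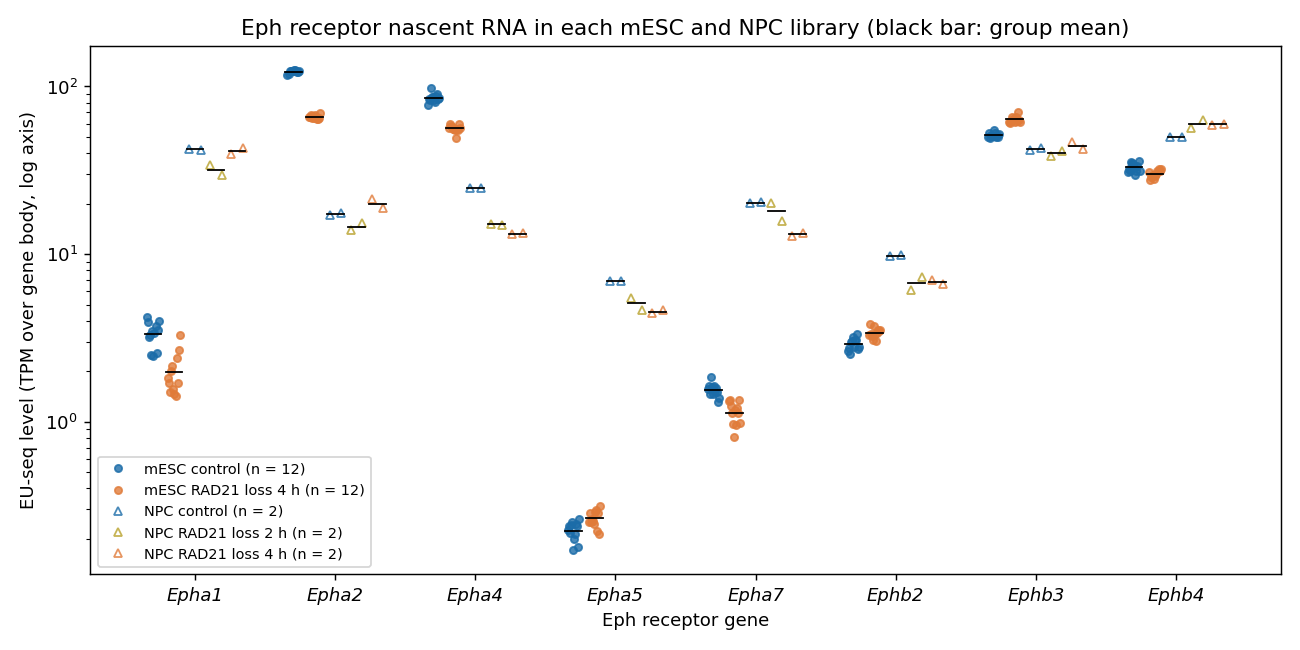
EU-seq level of each Eph receptor gene (TPM over the gene body, log axis) in each library of the additional mESC experiment (circles) and in NPC controls and NPCs after 2 and 4 h of IAA (triangles), with black bars at group means. Epha2 and Epha4 sat highest in mESC controls, and Epha5 was lowest in both cell types.

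A comparison of the NPC controls with the 12 mESC controls asked which receptors the cell types transcribe. The test was edgeR's quasi-likelihood test over all genes, and a gene was called with a Benjamini-Hochberg adjusted p under 0.05 and at least a 1.3-fold change, with each log2 fold change centred on the median of expressed genes. Epha2 was lower in NPCs by 6.91-fold (log2 -2.79 ± 0.05, SE, adjusted p = 4.4e-45) and Epha4 by 3.40-fold (log2 -1.77 ± 0.04, adjusted p = 1.32e-39). Epha5 was 31.8-fold, Epha7 13.4-fold, Epha1 12.9-fold, Ephb2 3.41-fold and Ephb4 1.54-fold higher in NPCs. Ephb3 was 1.19-fold lower, which is under the fold required (adjusted p = 6.74e-09). These 7 calls stand against 74.4% of all 17290 genes tested. Zyx, which overlaps Epha1, was 24.7-fold higher in NPCs. The fibroblast markers given above differ between the same groups, and their part in these differences was not tested. Cell type and experiment cannot be told apart in this comparison. Against the 2 controls of the initial mESC experiment the log2 difference was 2.69 for Epha7, 4.66 for Epha1 (on 14 counts per mESC library) and 5.63 for Epha5, against 3.75, 3.69 and 4.99 above. Against the same 2 controls of the initial mESC experiment, where Ephb2 stood at 9.52 and 10.9 TPM and Ephb4 at 49.3 and 52.2 TPM, neither gene was called any more (Ephb2 log2 0.09, adjusted p = 0.141, Ephb4 log2 0.13, adjusted p = 0.0772).

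The ligands and partners of the pathway were taken from a list of 42 further genes, of which 41 had a row. In NPCs 23 of the 40 tested were higher and 9 lower, against 74.4% of all genes called in either direction. Epha3, another EphA receptor, was 149.4-fold higher, Vav3, a guanine nucleotide exchange factor, 39.4-fold, Efnb2, which encodes ephrin-B2, 29.0-fold, and Efna5, which encodes ephrin-A5, 21.2-fold. The list's median log2 difference was 0.59, against 0.11 over all genes tested.

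Loss of RAD21 for 4 h in mESCs was compared between 12 control and 12 IAA libraries. Of the 8 receptors 4 fell and none rose, against 12.3% of all 15732 genes tested that were called in either direction. Epha2 fell from 116, 124 and 126 TPM (lowest, median and highest) to 64.1, 65.6 and 69.0 TPM, by 1.81-fold (log2 -0.86 ± 0.02, adjusted p = 1.03e-38). Epha4 fell from 77.7, 84.7 and 98.4 TPM to 49.6, 56.3 and 59.4 TPM, by 1.49-fold (log2 -0.57 ± 0.02, adjusted p = 4.23e-31). For neither gene did any IAA library reach a control library. Epha7 fell from 1.32, 1.54 and 1.84 TPM to 0.810, 1.15 and 1.36 TPM, by 1.33-fold (adjusted p = 6.47e-08), and its groups overlapped. Epha1 fell from 2.46, 3.43 and 4.21 TPM to 1.42, 1.76 and 3.28 TPM, by 1.65-fold (adjusted p = 1.6e-06), on 13 to 58 counts per library and with overlapping groups, while Zyx, which overlaps it, was log2 -0.28 lower (adjusted p = 0.00125), under the fold required.

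The other 4 receptors passed the p threshold but not the fold required. Ephb3 stood at 49.0, 51.0 and 55.0 TPM in controls and at 60.4, 62.8 and 70.8 TPM after IAA, with no overlap, and was 1.27-fold higher (log2 0.35 ± 0.03, adjusted p = 5.69e-16). Its nested second row gave 1.29-fold. Ephb2 was 1.20-fold higher (adjusted p = 3.79e-08) and Epha5 1.22-fold higher (adjusted p = 0.0024), while Ephb4 was 1.07-fold lower (adjusted p = 0.00307). In same-numbered libraries Epha2, Epha4 and Epha1 were lower after IAA in 12 of 12 pairs, Epha7 in 11 of 12 and Ephb3 in 0 of 12. Without the libraries of batch CC52, 4 receptors were called again and the log2 fold change of Epha4 was -0.58. The summed level of the naive pluripotency markers was 5638 to 6101 TPM in controls and 4777 to 5063 TPM after IAA, and the fibroblast markers summed to 2.20 to 2.81 and 4.13 to 5.38 TPM. The neuron markers summed to 59.52 to 73.36 and 78.26 to 90.45 TPM and the oligodendrocyte markers to 57.4 to 69.75 and 41.95 to 50.75 TPM, while sums of the other marker classes overlapped. Their part in these results was not tested.

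In the initial experiment, with 2 libraries a group, 2 of the 7 receptors tested fell, against 4.74% of all genes. Epha4 was at 97.7 and 109 TPM in controls and at 52.7 and 57.5 TPM after IAA, a fall of 1.74-fold (log2 -0.80 ± 0.08, adjusted p = 1.74e-20). Epha2 was at 124 and 128 TPM and then at 70.3 and 74.7 TPM, a fall of 1.62-fold (adjusted p = 2.1e-17). In both genes the IAA libraries lay below the controls. Epha7 was 1.24-fold lower with an adjusted p of 0.0954. Epha5, Ephb2, Ephb3 and Ephb4 had log2 fold changes from -0.03 to 0.09, with adjusted p values from 0.628 to 0.992. Epha1, with 14 to 20 counts per library, was not tested. The naive pluripotency markers summed to 4377 to 4529 TPM in controls and 3517 to 3596 TPM after IAA. The fibroblast markers summed to 3.59 to 4.07 and 5.74 to 6.74 TPM. Neuron markers summed to 34.06 to 35.74 and 39.85 to 42.09 TPM, and oligodendrocyte markers to 48.41 to 50.38 and 35.21 to 36.56 TPM. Sums of the other marker classes overlapped, and the part of the markers in these results was not tested.

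**Figure D2:**
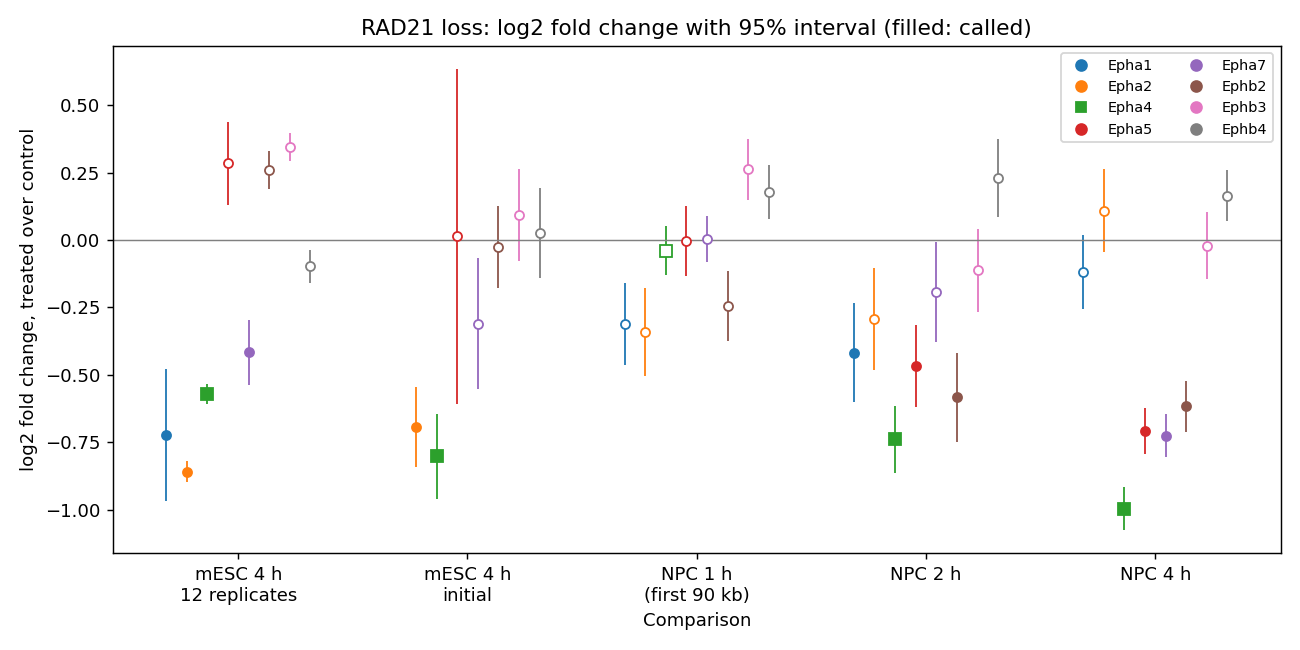
Centred log2 fold change (treated over control) of each receptor in 5 comparisons of RAD21 loss, with 95% intervals and filled symbols for called genes. Epha4 (squares) was called in both mESC experiments and in NPCs at 2 h and 4 h, but not at 1 h.

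Loss of RAD21 in NPCs was followed over time against the same 2 control libraries. After 1 h, counted over at most the first 90 kb of a gene, no receptor was called, against 5.09% of all genes, although 5 of 8 had an unadjusted edgeR p under 0.05. DESeq2 called none either, with 5 of 8 under that p. An adjusted p under 0.05 was found for 5 with edgeR and for 1 with DESeq2. Epha4 stood at 20.1 and 20.5 TPM in controls and at 20.4 and 20.5 TPM after 1 h (log2 -0.04, 95% interval -0.13 to 0.05). By edgeR, Epha2 was 1.27-fold lower (adjusted p = 0.0119), Epha1 1.24-fold lower (adjusted p = 0.0137) and Ephb3 1.20-fold higher (adjusted p = 0.00148), all under the fold required. Ephb2 was 1.18-fold lower (adjusted p = 0.0278) and Ephb4 1.13-fold higher (adjusted p = 0.00796), also under that fold. Without 1 of the IAA libraries Epha2 was called (log2 -0.40) and without the other Epha1 (log2 -0.41).

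After 2 h, Epha4, Ephb2, Epha5 and Epha1 fell, 4 of 8 against 9.34% of all genes. Epha4 was at 14.98 and 15.14 TPM against 24.6 and 24.8 TPM in controls, a fall of 1.67-fold (log2 -0.74 ± 0.06, adjusted p = 4.06e-05). Ephb2 was at 6.09 and 7.28 TPM against 9.70 and 9.86 TPM, a fall of 1.498-fold (adjusted p = 0.00139). Both lay below their controls in both libraries. Epha5, the only receptor longer than the limit that the methods state for 2 h, fell by 1.38-fold (adjusted p = 0.00404) and Epha1 by 1.34-fold (adjusted p = 0.0219). Without replicate 2 of the 2 h libraries only Epha4 and Ephb2 were called, and without replicate 1 Epha7 was called too (log2 -0.39). Epha1 lost its call with DESeq2 (adjusted p = 0.0691), without centring (log2 -0.37), and without either control library.

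After 4 h, the 4 long receptors fell and the 4 short ones were not called, which gives 4 of 8 against 16.7% of all genes. Epha4 was at 13.2 and 13.3 TPM, a fall of 1.99-fold (log2 -0.995 ± 0.04, adjusted p = 1.34e-18). Epha7 was at 12.8 and 13.4 TPM against 20.1 and 20.6 TPM, a fall of 1.65-fold (adjusted p = 4.83e-15). Epha5 was at 4.42 and 4.63 TPM against 6.92 and 6.96 TPM, a fall of 1.63-fold (adjusted p = 4.31e-14). Ephb2, at 6.59 and 7.01 TPM, fell by 1.53-fold (adjusted p = 1.8e-11). In all 4 genes both libraries lay below both controls. Of the short genes, Ephb4 was at 59.0 and 60.0 TPM against 49.8 and 49.8 TPM and was 1.12-fold higher (adjusted p = 0.00167), under the fold required. Epha2, Epha1 and Ephb3 had log2 fold changes of 0.11, -0.12 and -0.02 with adjusted p values of 0.158, 0.343 and 0.913. The NPC markers summed to 2405 to 2623 TPM in controls and 2683 to 2777 TPM at 4 h and the fibroblast markers to 1613 to 1837 and 1642 to 1672 TPM, while at 2 h the fibroblast markers summed to 1735 to 2321 TPM. Their part in these results was not tested.

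Length has to be read beside these NPC counts. Of all genes tested at 4 h with a gene body at least as long as that of Epha4, 49% were called lower (681 of 1389, median log2 fold change -0.39), against 4.84% of those no longer than Epha2 (427 of 8823, median 0.04). At 2 h the shares were 41.4% and 2.03%, so a call as lower was common among long genes. Within this length class, 14.2% of genes had a lower fold change than Epha4 at 4 h, and 24.3%, 25.4% and 31.5% stood below Epha7, Epha5 and Ephb2. In mESCs (12 replicates) the shares called lower were 7.5% and 4.32%. There 3.03% of the long genes stood below Epha4, 6.06% below Epha7, and 79.5% and 76.3% below Epha5 and Ephb2, and 0.89% of the short genes stood below Epha2. The part of length in the fall of single receptors was not tested.

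Whether the effect of 4 h of RAD21 loss differed between the cell types was tested as an interaction, the NPC effect minus the mESC effect, which called 18.2% of all genes and 5 of 8 receptors. Epha2 had fallen in mESCs and had not been called in NPCs, with a difference of log2 0.98 ± 0.07 (adjusted p = 9.03e-18). Epha5 and Ephb2 differed in the other direction, by -0.98 ± 0.10 (adjusted p = 6.52e-12) and -0.86 ± 0.08 (adjusted p = 4.99e-14). Epha4 fell in both and by more in NPCs, with a difference of -0.41 ± 0.06 (adjusted p = 5.41e-08). Epha1 differed by 0.62 ± 0.17 (adjusted p = 0.00161). Of genes at least as long as Epha4, 48.1% were called with a lower effect in NPCs, and the median difference over this class was -0.42. Within it 50.9% of genes stood below Epha4, 19.6% below Epha5 and 23.6% below Ephb2. The part of length in these differences was not tested. With the initial mESC experiment in place of the 12 replicates, the difference for Epha4 was -0.16 and was not called (adjusted p = 0.187), Epha5 was not called either (-0.70, adjusted p = 0.073), and Epha2, Ephb2 and Epha7 were called. Epha1 gave -0.45 (adjusted p = 0.477) there, a value that rests on 14 to 20 counts per mESC library, and it passed the count filter only through the NPC libraries.

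Epha4 was set beside each paralogue without a test, as the difference of their log2 fold changes within a comparison. The intervals combine the standard errors of the 2 genes as if these were independent, although both were measured in the same libraries. They are thus approximate, and whether one spans 0 is not a test. In mESCs (12 replicates) Epha4 was lower than Ephb3 by -0.92 (95% interval -0.98 to -0.85), than Epha5 by -0.86 (-1.01 to -0.70) and than Ephb2 by -0.83 (-0.91 to -0.75). The difference from Epha1 had an interval that spans 0 (0.15, -0.09 to 0.40), and Epha2 had fallen further, so that the difference was 0.29 (0.23 to 0.34). Epha4 was lower than Ephb4 by -0.47 (-0.55 to -0.40) and than Epha7 by -0.15 (-0.28 to -0.03). In the initial mESC experiment the difference from Epha2 was -0.11 with an interval that spans 0 (-0.32 to 0.11), and those from the other 5 receptors tested ran from -0.90 for Ephb3 to -0.49 for Epha7. In NPCs at 4 h Epha4 stood below all 7 paralogues, from -0.27 (-0.38 to -0.16) for Epha7 to -1.16 (-1.29 to -1.04) for Ephb4. The level of Epha4 relative to Epha2 within a library, as a log2 ratio of TPM, was -0.63 to -0.33 in mESC controls and -0.41 to -0.12 after IAA. In NPCs the same ratio was 0.48 and 0.53 in controls and -0.69 and -0.50 after 4 h, so Epha4 moved from above Epha2 to below it. Relative to Ephb4, the ratio in NPCs went from -1.016 and -1.005 to -2.18 and -2.16.

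CBP/p300 inhibition by A-485 for 1 h in NPCs, counted over at most the first 90 kb, lowered 7 of 8 receptors, against 44.5% of all 16009 genes called. Centring subtracted 0.12 on the log2 scale here. Epha4 was at 20.1 and 20.5 TPM in controls and at 1.29 and 1.32 TPM after A-485, a fall of 19.1-fold (log2 -4.25 ± 0.09, adjusted p = 2.06e-15). Epha5 was at 7.67 and 8.17 TPM and then at 0.612 and 0.721 TPM, a fall of 14.5-fold (adjusted p = 2.03e-13). Epha7 was at 19.8 and 20.6 TPM and then at 2.46 and 3.69 TPM, a fall of 8.11-fold (adjusted p = 9.21e-13). None of the treated libraries of these 3 genes came near a control. Epha1 fell by 7.42-fold, Epha2 by 4.79-fold, Ephb2 by 3.14-fold and Ephb3 by 2.43-fold. Ephb4 was at 49.9 and 49.9 TPM and then at 49.6 and 52.7 TPM and was not called (log2 -0.26, 95% interval -0.39 to -0.12 after centring, adjusted p = 0.0925). That p value tests the change before 0.12 was subtracted, so it and the interval do not refer to the same value. The p value also comes from the F test, while the interval uses a normal distribution, so they need not match. Zyx, which overlaps Epha1, fell by 3.92-fold. The NPC markers summed to 2405 to 2623 TPM in controls and 1210 to 1542 TPM after A-485, and the fibroblast markers to 1613 to 1837 and 964 to 1303 TPM, and their part in these results was not tested.

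Of the pathway list 23 of 39 genes fell after A-485 and 1 rose, against 44.5% of all genes called in either direction. The list's median log2 fold change was -0.68, against -0.11 over all genes. The largest changes were those of Vav3 (21.4-fold), Epha3 (20.9-fold), Efna5 (7.28-fold) and Ephb1, another EphB receptor (6.74-fold). Of all genes at least as long as Epha4, 70.2% were called lower by A-485, and 3.32% had a lower fold change than Epha4.

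A-485 and RAD21 loss at 1 h share their control libraries, so they were also compared directly, treated against treated, which called 44.3% of all genes. All 8 receptors were lower after A-485. The differences ran from log2 -4.21 ± 0.08 for Epha4 (adjusted p = 1.35e-12) and -3.85 ± 0.13 for Epha5 to -0.44 ± 0.07 for Ephb4 (adjusted p = 0.000899). The call of Ephb4 was lost without centring (log2 -0.34) and without replicate 1 of A-485 (log2 -0.37). The 1 h of IAA includes the time in which RAD21 is degraded, and these libraries do not measure RAD21 protein. Equal times are thus not known to be equal durations of loss, and Epha4 was called after 2 h of IAA. Treated libraries of both kinds are set side by side with the controls in the plot of levels after 1 h.

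In the 4 long genes, reads of the NPC controls could be compared with and without the limit of 90 kb. The first 90 kb held 50.1 and 49.6% of the reads of Epha4 in 60.85% of its length, 57.2 and 58.3% of those of Epha7 in 58.3%, 38.6 and 40.4% of those of Ephb2 in 47.8%, and 27.5 and 29.1% of those of Epha5 in 24.9%. The first 90 kb thus held close to an even share of reads in Epha7, more than an even share in Epha5 and less in Epha4 and Ephb2.

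The other pathway genes moved with RAD21 loss in NPCs as follows. After 1 h 5 of 39 fell, against 5.09% of all genes called in either direction. Vav3 (1.55-fold), Ephb1 (1.52-fold), Epha3 (1.48-fold) and Sipa1l1, which encodes a GTPase-activating protein (1.35-fold), changed most. After 2 h 8 of 40 fell, against 9.34% of all genes, led by Ephb1 (2.11-fold), Vav3 (2.08-fold), Epha3 (1.84-fold) and Sipa1l1 (1.65-fold). After 4 h 11 of 40 fell and 1 rose, against 16.7% of all genes. Ephb1 was lower by 5.34-fold, Epha3 by 3.14-fold, Vav3 by 2.50-fold and Sipa1l1 by 1.74-fold. The list's median log2 fold change at 4 h was -0.18, against -0.02 over all genes tested. Of genes at least as long as Epha4, 49% were called lower at 4 h, with a median of -0.39. The list was not set against genes of like length, and the part of length was not tested. In mESCs (12 replicates) 4 of 39 rose and none fell, against 12.3% of all genes called in either direction. The 4 were Efnb1 (1.52-fold) and Efnb2 (1.52-fold), which encode ephrin-B ligands, Efna2 (1.47-fold), an ephrin-A ligand, and Epha10 (1.32-fold), a receptor without an active kinase. The list median was 0.01 against 0.03. In the initial experiment 3 of 39 were called, against 4.74% of all genes. Efnb2 rose by 1.45-fold, while Efnb3 fell by 1.63-fold and Grb10, an adaptor, by 1.43-fold. In the interaction 12 of 40 had a lower effect in NPCs and 1 a higher one, against 18.2% of all genes called. Ephb1 (-2.73), Epha3 (-1.89), Efnb1 (-1.36) and Vav3 (-1.30) were the largest on the log2 scale.

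CTCF loss for 6 h in CTCFAID mESCs was tested with library type as a covariate and called 2 of the 7 receptors tested, against 3.36% of all genes. Ephb3 rose by 1.62-fold (log2 0.69 ± 0.11, SE, adjusted p = 0.0129), from 58.3 and 63.8 to 94.0 and 96.2 TPM in unstranded and from 84.1 and 91.0 to 125 and 163 TPM in stranded libraries. Epha2 fell by 1.76-fold (log2 -0.82 ± 0.17, adjusted p = 0.0366), from 61.8 and 71.7 to 33.6 and 35.7 TPM in unstranded and from 93.9 and 161 to 54.1 and 98.6 TPM in stranded libraries. Within a library type the groups of Ephb3 did not overlap. Those of Epha2 overlapped in stranded libraries, where Epha2 was lower after IAA in each same-numbered pair. Epha4 was at 69.2 and 71.2 TPM and then 58.5 and 69.7 TPM in unstranded, and at 95.6 and 104 TPM and then 88.0 and 88.3 TPM in stranded libraries, with overlap in the unstranded ones, and was not called (log2 -0.14, 95% interval -0.28 to 0.00, adjusted p = 0.291). Epha5 was too low to be tested.

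The stranded replicates stood apart from each other, and same-numbered control and IAA libraries deviated together (r = 0.805 in stranded and 0.471 in unstranded libraries), with 9521012 and 7745427 counts in those numbered 1 and 21898781 and 18008719 in those numbered 2. With the replicate number as a block the 2 calls stood (Ephb3 adjusted p = 4.37e-05, Epha2 adjusted p = 8.13e-07), where 14.1% of all genes were called, and Epha4 had log2 -0.14 with an adjusted p of 0.0071, under the fold required. In stranded libraries alone, fitted without this block as the leave-one-out fits below were, neither gene was called. Epha2 lost its call without 6 of the 8 libraries in turn (adjusted p from 0.0723 to 0.152), and Ephb3 without unstranded control 1 (adjusted p = 0.0669) or unstranded IAA 2 (adjusted p = 0.061). The naive pluripotency markers summed to 4956 to 5232 TPM in controls and 4400 to 4947 TPM after IAA in unstranded libraries, and overlapped in stranded ones. The 3 genes listed as neural crest markers (Sox10, Foxd3 and Tfap2a) summed to 139.6 to 165.6 TPM in controls and 82.8 to 84.6 TPM after IAA in unstranded libraries, and to 108.8 to 136 and 73.1 to 82.1 TPM in stranded ones. They summed to 169.3 to 213.9 TPM in the additional mESC controls and 320.5 to 434.5 TPM in CTCFYF-AA controls, so a high sum was not particular to this line. The part of the naive or neural crest markers in these results was not tested. Of the pathway list 3 of 39 genes were called in the fit without the block, against 3.36% of all genes. Efnb1 (2.94-fold), Efna2 (1.97-fold) and Fyn, a Src family kinase (1.46-fold), rose and none fell.

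**Figure D3:**
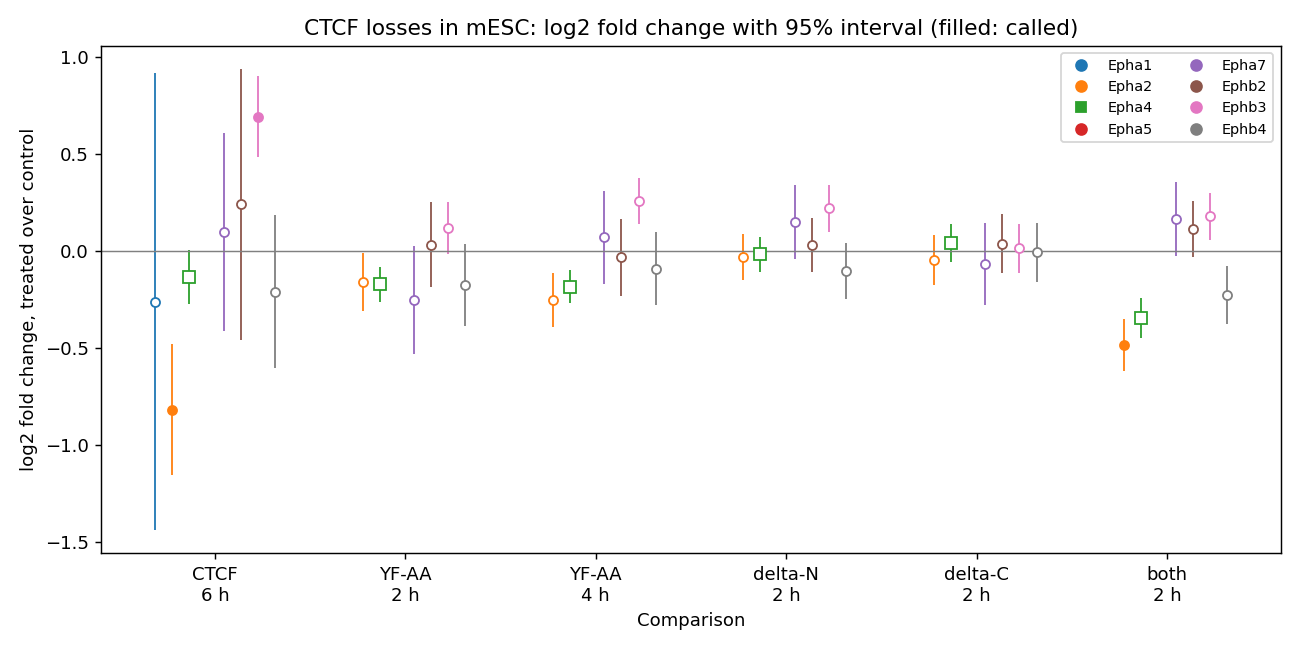
Centred log2 fold change of each receptor with 95% interval in 6 comparisons of CTCF loss in mESCs, with filled symbols for called genes. Ephb3 and Epha2 were called after 6 h of CTCF loss and Epha2 after loss of both truncations, and Epha5 was below the count filter in all 6.

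In CTCFYF-AA mESCs no receptor was called by edgeR or DESeq2 after 2 h or 4 h of dTAG13, against 2.7% and 3.33% of all genes. With edgeR 2 and 3 of the 6 receptors tested had an unadjusted p under 0.05, and with DESeq2 1 and 3. An adjusted p under 0.05 was found for 1 and 3 with edgeR and for 0 and 1 with DESeq2. Epha4 was at 84.9 and 91.8 TPM in controls, 74.7 and 81.7 TPM at 2 h and 76.4 and 80.7 TPM at 4 h, below the controls in each library and lower by log2 -0.17 (adjusted p = 0.00495) and -0.18 (adjusted p = 0.00177), both under the fold required. With the replicate number as a block the edgeR adjusted p values of Epha4 were 0.0597 at 2 h and 1.59e-05 at 4 h. Ephb3 was at 164 and 166 TPM in controls, 174 and 186 TPM at 2 h and 198 and 202 TPM at 4 h, where it was log2 0.26 higher (adjusted p = 0.00563), and Epha2 was at 86.4 and 93.3 TPM in controls and 74.8 and 79.9 TPM at 4 h, log2 -0.25 lower (adjusted p = 0.0135), both also under the fold required. The naive pluripotency markers summed to 7157 to 7418 TPM in controls, 6588 to 6628 TPM at 2 h and 6471 to 6700 TPM at 4 h, and their part in these values was not tested. Of the pathway list 0 genes were called at either time, with 6 and 5 under an unadjusted edgeR p of 0.05 and 2 and 0 with DESeq2.

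In the line with both CTCF truncations, loss of CTCF-delta-N by AGB1 called no receptor, against 1.44% of all genes, and loss of CTCF-delta-C by dTAG13 none, against 0.0587%. DESeq2 called none in either, and an unadjusted p under 0.05 was found for 1 receptor with AGB1 and 0 with dTAG13 by both tools. Loss of both lowered Epha2, 1 of 6 tested against 3.5% of all genes, from 53.3 and 54.4 TPM to 36.4 and 39.9 TPM (log2 -0.49 ± 0.07, adjusted p = 3.25e-06). With AGB1 alone Epha2 was at 52.3 and 55.0 TPM and with dTAG13 alone at 52.1 and 53.6 TPM. Epha4 was at 54.4 and 57.1 TPM in controls, 54.8 and 57.4 TPM with AGB1, 54.4 and 61.9 TPM with dTAG13 and 43.3 and 44.1 TPM with both, where it was lower by log2 -0.35 ± 0.05 (adjusted p = 1.34e-05), under the fold required. For both genes the libraries with both agents alone lay below all others of this line. The naive pluripotency markers summed to 5307 to 5481 TPM in these controls and 4817 to 4939 TPM with both agents, and their part was not tested. Of the pathway list, 0 of 36 genes were called with either agent alone by both tools, with an unadjusted edgeR p under 0.05 for 2 in each and a DESeq2 one for 0 with AGB1 and 1 with dTAG13. Epha6 rose with both agents (1.60-fold, adjusted p = 0.046 by edgeR, and no pathway gene was called by DESeq2).

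Around Epha4, 8 other rows of the table start within 1 Mb, and at most 3 of them, Sgpp2, Pax3 and Farsb, passed the count filter in any comparison. Gm28386, a lincRNA on the opposite strand that starts 0.2 kb from Epha4, did not pass in any. None of the neighbours was called in the 5 comparisons of RAD21 loss. Farsb, a tRNA synthetase subunit, was 1.20-fold lower in NPCs at 4 h (log2 -0.26, adjusted p = 0.000281), and Sgpp2, a phosphatase, log2 0.25 higher in mESCs (12 replicates, adjusted p = 3.83e-05), both under the fold required. A-485 lowered Pax3, a transcription factor of the dorsal neural tube, by 10.7-fold and raised Sgpp2 by 2.13-fold. After CTCF loss Pax3 rose by 2.94-fold (adjusted p = 0.024). Pax3 was 9.62-fold higher in NPCs than in mESCs, and Farsb and Sgpp2 were 2.34-fold and 1.79-fold lower.

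The genes with the pattern most like that of Epha4 were sought by Euclidean distance of log2 fold changes over 6 comparisons (RAD21 loss in mESCs with 12 replicates and in NPCs at 1, 2 and 4 h, A-485 and CTCF loss at 6 h), among 11347 genes. The nearest were Colec12 (distance 0.542), Spry1, a feedback inhibitor of receptor tyrosine kinase signalling (0.569), Boc, a co-receptor for hedgehog ligands (0.647), Adgrg6, an adhesion receptor (0.685), and Hmga2, a chromatin protein (0.706). Their log2 fold changes with A-485 were -3.93, -4.16, -4.21, -3.87 and -4.60, against -4.25 for Epha4. At 4 h of RAD21 loss in NPCs they were -0.73, -1.31, -1.38, -1.26 and -0.56, against -0.995. In mESCs (12 replicates) they were -0.35, -0.20, -0.23, -0.90 and -0.545, against -0.57, and those of Colec12, Spry1 and Boc were under the fold required. After CTCF loss they were -0.04, -0.12, 0.19, -0.33 and -0.04, against -0.14. Comparisons entered the distance unscaled, and A-485 held the largest changes, so a small distance need not mean a like response in mESCs. No receptor of the family was among the 5 nearest genes. Epha5, not tested for CTCF loss, and Epha1, under the count required in mESCs, were outside this pool and could not be listed.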

How the data were processed

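EU-seq libraries of mESCs and NPCs had been aligned by the authors to mm10 with bwa meme, filtered with SAMtools (version 1.4) for mapping quality, cleared of rRNA and tRNA reads and counted with HTSeq over the gene body of representative transcripts (GENCODE M25, the longest isoform at each promoter peak, so that a gene can have several). The deposited values are raw counts per gene in 62 columns, 2 of which recount the NPC controls over at most the first 90 kb. Whether counting used strand, and the separation of stranded reads, are not given in the sources used here. The methods state a limit on length for 2 h that is shorter than Epha5 alone of the members, but the 2 h columns name none, and 125 genes of 600 kb or more had a median log2 fold change of -0.54 in NPCs at 2 h, against -1.89 had they been cut there, so whole gene bodies were assumed. Symbols came from GENCODE M21 through the Ensembl transcript, with 27296 rows matched with version, 159 without and 210 unmatched.

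Counts were tested with edgeR (version 4.0.16, TMM, quasi-likelihood F test, two-sided, Benjamini-Hochberg over all genes tested) among genes with a mean count over 20 in at least 1 group, and the fit for CTCF loss at 6 h included the library type. Log2 fold changes were centred on the median of genes over 15 TPM, also for the fold threshold and the intervals. The p values test the fold change before centring, and standard errors follow from that fold change and its F value. TPM, computed here from the deposited counts and gene body lengths, give levels, so their ratios differ slightly from the fitted folds. DESeq2 (version 1.42.0), other normalization, no filter on low counts, no centring, the replicate number as a block and leaving out libraries were the alternatives, and the script was tested on simulated data. The text names all 8 members, up to 4 further pathway genes a comparison by size of change, all tested neighbours of Epha4 and the 5 genes nearest to it in pattern. The members, the pathway list and the tests were chosen with earlier results of these data known. No 2 libraries held identical counts. The labels do not say that a replicate number marks a shared culture. In CTCF loss at 6 h same-numbered libraries deviated together (r = 0.805 in stranded and 0.471 in unstranded libraries), so numbers were taken to pair those libraries. With 2 libraries a group, the pairs of a library type share 1 value of r. The fit reported first held library type alone, and the fit with the number as a block is given beside it.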

Additional observations from a re-analysis of the deposited data

Results flagged for a closer look

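The effect of 4 h of RAD21 loss differed between NPCs and mESCs (interaction test of edgeR over all genes) for 5 receptors, and these differences, given as NPC effect minus mESC effect on the log2 scale, are listed for a closer look. Epha2 differed by 0.98 (adjusted p = 9.03e-18). Epha5 differed by -0.98 (adjusted p = 6.52e-12) and Ephb2 by -0.86 (adjusted p = 4.99e-14). Epha1 differed by 0.62 (adjusted p = 0.00161), on 13 to 58 counts per mESC library. Epha4 differed by -0.41 (adjusted p = 5.41e-08). Genes at least as long as Epha4 had a median difference of -0.42, and 50.9% of them stood below Epha4. With the initial mESC experiment in place of the 12 replicates, Epha4 (-0.16, adjusted p = 0.187), Epha5 (-0.70, adjusted p = 0.073) and Epha1 (-0.45, adjusted p = 0.477) were not called. The mESC and NPC libraries come from separate experiments, and cell type and experiment cannot be told apart.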

How the results depend on the processing

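Over 1128 alternatives computed for these results, Epha4 kept its direction and its side of the threshold in 137 of 138, counting uncalled values by their call alone, and the number of receptors called stayed within 1.5 times of the value reported in 129 of 141. Changes of sign among uncalled values were 27. With the initial mESC experiment in the interaction, 3 receptors were called instead of 5, and Epha4 (-0.16, adjusted p = 0.187) and Epha5 (-0.70, adjusted p = 0.073) lost their calls. Epha1 reversed (-0.45) on 14 to 20 counts per initial mESC library, passing the count filter only through the NPC libraries. For CTCF loss at 6 h, 1 receptor was called with no library covariate and 0 in stranded libraries alone (555 genes at an unadjusted p under 0.05), and leaving out 1 library at a time gave 0 to 2. Leaving out 1 library gave 0 to 1 receptors for NPCs at 1 h and 2 to 5 at 2 h. The causes were not tested.

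With the replicate number as a block, no count of receptors called changed: 4 for RAD21 loss in mESCs with 12 replicates, 2 in the initial experiment, 0, 4 and 4 in NPCs at 1, 2 and 4 h, 7 for A-485 and 2 for CTCF loss at 6 h. Outside CTCF loss at 6 h the numbers were not taken to pair the libraries (r from -0.137 to 0.343). A crossed pairing, added after seeing the data where r was under -0.1, gave 2 receptors in the initial mESC experiment, 0 in NPCs at 1 h and 8 for A-485 against RAD21 loss.

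Counts over all genes moved by over 1.5 times as follows. For CTCF loss at 6 h, 524 genes became 894 with DESeq2, 2201 with the block, 288 with no covariate, 1089 in unstranded libraries alone, 0 in stranded libraries alone and 209 to 235 without an unstranded library. DESeq2 called 340 genes in place of 719 (initial mESCs), 215 in place of 378 and 275 in place of 475 (CTCFYF-AA at 2 and 4 h), and 273 in place of 482 (both truncations). Without a filter 2920 genes were called in place of 1932 (mESCs with 12 replicates). Leaving out 1 library gave 352 or 413 in the initial mESCs, 2389 in place of 1494 in NPCs at 2 h and 13 in place of 8 for dTAG13, as did the block there, and the initial mESC experiment gave 2091 in place of 3198 in the interaction. In the mutant lines and the NPCs, 2 libraries a group limit the precision.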
